A study of Mus musculus with 8 samples.

Results

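The 7 genes described here are the mouse estrogen receptor genes Esr1 (Entrez gene 13982) and Esr2 (13983) and 5 genes known as targets of the receptors: Pgr (18667), Greb1 (268527), Tff1 (21784), Cxcr4 (12767) and Nrip1 (268903). They were chosen by name, as a check on direct receptor effects of tamoxifen, and were found in the platform annotation by their symbols. Each of the 7 had exactly 1 probe set carrying its symbol alone, out of 19938 genes with such a probe set. With tamoxifen, 0 of the 7 were called (limma adjusted p under 0.05) over both fibroblast lines, where 1.32% of all genes were, 0 in line A (0.502% of all genes) and 0 in line B (0.0201%). Shares this low make a count of 0 no result about these genes, so their values and intervals are given below.

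The study measured transcripts on Affymetrix arrays in primary mouse embryonic fibroblasts (MEFs), cells grown out of embryos, to compare cells that express the PKM1 or the PKM2 isoform of pyruvate kinase. There were 4 groups of 2 samples, 8 arrays in all: line A (MEF10) without tamoxifen, expressing PKM2, line A with tamoxifen, expressing PKM1, and the same pair of groups for line B (MEF16). The labels give no dose, duration, embryo age or strain, do not name the allele or recombinase that tamoxifen acts on, and do not state whether samples of 1 group came from separate cultures. The p-values then refer only to the scatter among these arrays, part of which may be technical. All samples with tamoxifen express PKM1 and all without it express PKM2, so an effect of the drug and an effect of the isoform exchange cannot be told apart in any comparison here.

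Values are log2 expression values after the robust multi-array average (RMA), and a change is the log2 value with tamoxifen less that without it, unless another direction is given. A gene was called where limma's test, adjusted by Benjamini-Hochberg over all 19938 genes, gave a p under 0.05. The samples of a group correlated at 0.9956 (line A without tamoxifen), 0.9974 (line A with), 0.9907 (line B without) and 0.9894 (line B with) across genes. Since some label fields speak of mammary tumor tissue, cell type markers were looked at. All 13 measured fibroblast markers averaged above 7.45, the 95th percentile of the means of 30 genes restricted to other tissues such as liver, retina or testis, whereas 1 of 11 epithelial and mammary markers, 2 of 11 blood cell markers and 1 of 8 endothelial markers did. Of all 19938 genes, 9390 averaged above 7.45. The markers are a rough check, since probe sets differ in affinity. In RNA from a whole culture, fewer cells of a type and less RNA per cell cannot be told apart.

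Estrogen receptors are nuclear receptors that bind estradiol, dimerise and act on DNA at estrogen response elements, which are inverted repeats of a short core motif, or through other factors already bound there. Tamoxifen occupies the same pocket: it blocks the receptor in breast epithelium and acts as a partial agonist in some other tissues, such as the uterus. It is also the usual trigger for recombinases fused to a mutated hormone-binding domain of the estrogen receptor, which respond to the drug but not to estradiol. Transcripts of Pgr, Greb1, Tff1, Cxcr4 and Nrip1 are induced by estradiol in breast cancer cells, and for that reason serve as readouts of the receptor.

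The starts of the members were read for the letters of the response element before their levels are given. The RefSeq promoter table (GRCm38.p6) held 9 windows for 6 of the 7 members and none for Tff1. Each window ran from 250 bases before to 50 bases after an annotated transcript start. The palindromic element GGTCANNNTGACC was found in 0 of the 9 windows, and in 23 of all 32851 windows of the table (0.07%). With a share this low, a count of 0 is no result about the members. A single copy of the core motif, GGTCA or its reverse complement TGACC, was searched on both strands and also lies inside the palindrome. It stood in 5 of the 9 windows, of 4 members (Esr1, Esr2, Greb1 and Nrip1), against 13299 of 32851 windows overall (40.5%). A match is a description of the letters and not a binding site, and known elements often lie far from the start, outside these windows. The upstream 250 bases of 2 target genes with a copy of the core motif are printed because their transcripts are compared below, and those of Igf1 because it is the one estrogen-induced gene of the lists below that was called higher. The other window of Greb1 holds 2 copies and that of Nrip1 holds 0, and neither is printed. Sgk1, the estrogen-induced gene of the lists that was called lower, also has windows with a copy, which are not printed. Copies of the core motif are in capitals. The Greb1 stretch is chr12:16800887-16801136 on the minus strand, with TGACC starting 88 bases before the start. That of Nrip1 is chr16:76373828-76374077 on the minus strand, with GGTCA 77 bases before the start. That of Igf1 is chr10:87860861-87861110 on the plus strand, with GGTCA 160 bases before the start.
Greb1: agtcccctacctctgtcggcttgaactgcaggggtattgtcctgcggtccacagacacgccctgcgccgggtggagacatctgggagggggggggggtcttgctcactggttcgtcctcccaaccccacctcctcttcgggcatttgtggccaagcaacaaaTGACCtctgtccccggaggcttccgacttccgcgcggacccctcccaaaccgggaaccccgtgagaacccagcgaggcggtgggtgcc
Nrip1: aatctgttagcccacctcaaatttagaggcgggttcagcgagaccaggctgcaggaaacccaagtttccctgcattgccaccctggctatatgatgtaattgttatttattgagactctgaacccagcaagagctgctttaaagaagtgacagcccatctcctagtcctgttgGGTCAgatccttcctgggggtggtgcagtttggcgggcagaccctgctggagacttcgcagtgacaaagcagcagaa
Igf1: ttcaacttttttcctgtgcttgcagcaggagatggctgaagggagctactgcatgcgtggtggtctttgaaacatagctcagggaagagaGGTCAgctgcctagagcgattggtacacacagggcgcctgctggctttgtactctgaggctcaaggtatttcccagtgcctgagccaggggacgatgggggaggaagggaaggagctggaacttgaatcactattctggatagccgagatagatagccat

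Esr1 encodes estrogen receptor alpha, the form through which estradiol acts in breast and uterus. It read 8.65 and 8.64 in line A without tamoxifen, 8.39 and 8.39 in line A with it, 8.30 and 8.68 in line B without it, and 8.72 and 8.40 in line B with it. In line A both samples with tamoxifen lay below both without, while in line B each condition had 1 high and 1 low sample, so over both lines the conditions overlapped. The mean was 8.57 ± 0.18 without and 8.48 ± 0.16 with tamoxifen (SD, n = 4 each), a log2 fold change of -0.09 (SE 0.11, 95% interval -0.33 to 0.15, limma adjusted p = 0.86). It was -0.20 without the first and -0.05 without the second sample of line B without tamoxifen. Line A gave a change of -0.26 (SE 0.15, 95% interval -0.59 to 0.07, limma adjusted p = 0.77), and line B one of 0.07 (SE 0.15, limma adjusted p = 1.00). The SE of each line pools the scatter of all 4 groups. For Esr1 the SDs without and with tamoxifen were 0.005 and 4.4e-05 in line A, and 0.26 and 0.23 in line B. A fit of line A alone gave the same change with an SE of 0.08 (limma adjusted p = 0.17). The sign in line B depended on single arrays, since the value was -0.12 without the first sample without tamoxifen and 0.26 without the second. The difference between the lines, 0.33 (SE 0.21, 95% interval -0.14 to 0.79), did not pass either (limma adjusted p = 1.00). The groups ordered as line A without tamoxifen (8.65), line B with (8.56), line B without (8.49) and line A with (8.39), and each neighbour overlapped the next.

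Esr2 encodes estrogen receptor beta, known from ovary and prostate. It read 6.72 and 6.73 in line A without tamoxifen, 6.75 and 6.93 in line A with it, 6.62 and 6.65 in line B without it, and 6.51 and 6.83 in line B with it. Line A with tamoxifen held the highest group mean (6.84) and did not overlap line A without (6.73), while the line B samples with tamoxifen (mean 6.67) lay on both sides of those without (6.64). The means went from 6.68 ± 0.05 to 6.75 ± 0.18 (SD, n = 4 each), a change of 0.07 (SE 0.08, 95% interval -0.11 to 0.26, limma adjusted p = 0.85). Without the first or the second sample of line B with tamoxifen it was 0.15 or 0.02, and the value in line B, 0.03, became 0.20 or -0.13.

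**Figure D1:**
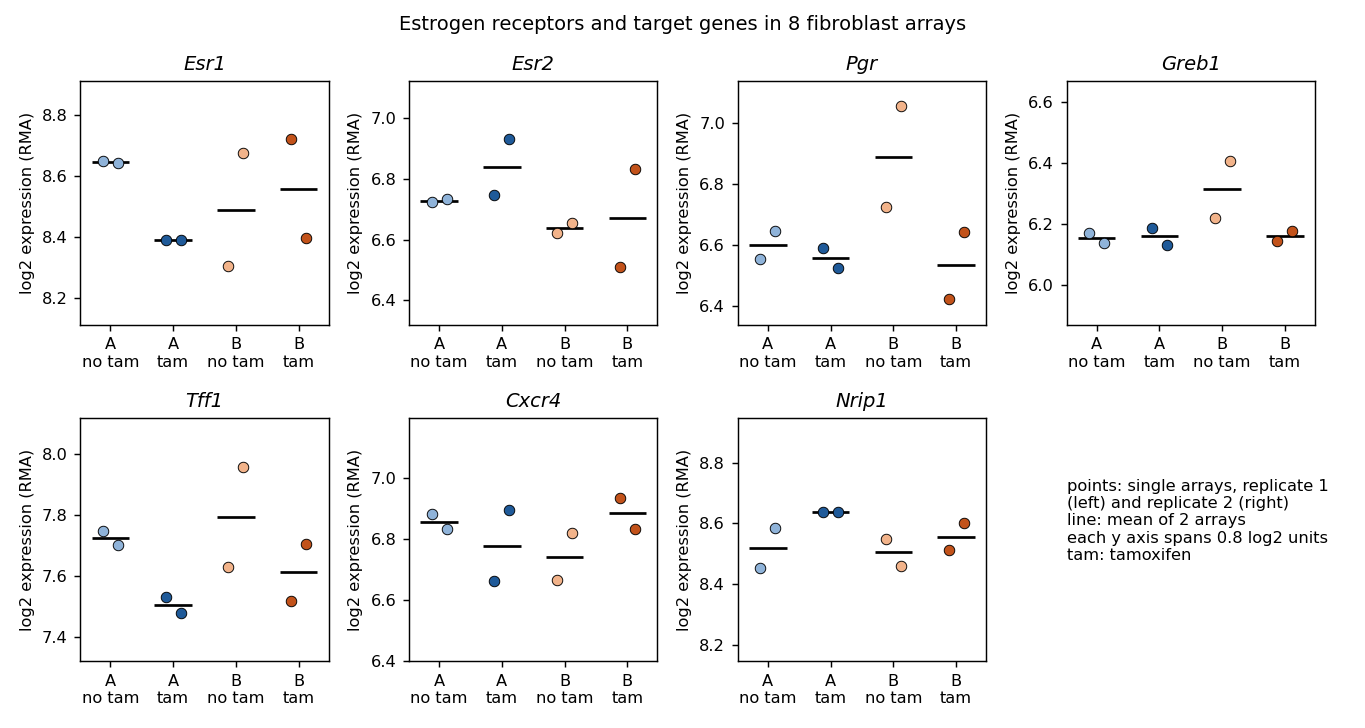
Log2 expression (vertical axis) of the 7 genes, 1 panel per gene, in the 4 groups of 2 samples (points) with the group means (bars). The Esr1 samples of line A drop from 8.65 and 8.64 to 8.39 and 8.39 with tamoxifen while those of line B overlap, and Pgr, Greb1 and Tff1 have their highest point on the same array, the second of line B without tamoxifen.

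Probe sets differ in affinity, so the levels of the members were not set against each other. Esr1, Tff1 and Nrip1 averaged above 7.45, the 95th percentile of the 30 genes restricted to other tissues. So did 9390 of all 19938 genes, so that 3 of 7 members is near the share of all genes. Of those 30 genes, 30 averaged below Esr1, 30 below Nrip1 and 29 below Tff1. Esr2, Pgr, Greb1 and Cxcr4 did not average above 7.45: of the 30 genes, 16 averaged below Esr2, 16 below Pgr, 10 below Greb1 and 17 below Cxcr4. The affinity of the probe sets makes this a rough comparison too. No detection calls were used, so whether each of the 7 transcripts was detected is not known.

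Pgr encodes the progesterone receptor, a target of estrogen receptor alpha in breast, uterus and brain. It read 6.55 and 6.65 in line A without tamoxifen, 6.59 and 6.53 in line A with it, 6.72 and 7.05 in line B without it, and 6.42 and 6.64 in line B with it. Line B without tamoxifen was the highest group (mean 6.89) and did not overlap the next, line A without (6.60); line A with (6.56) and line B with (6.53) overlapped their neighbours. Over both lines the means were 6.74 ± 0.22 and 6.54 ± 0.10 (SD, n = 4 each), a change of -0.20 (SE 0.10, 95% interval -0.42 to 0.02, limma adjusted p = 0.57). In line B the change was -0.36 (SE 0.13, 95% interval -0.65 to -0.06). Its unadjusted limma p was 0.023, where 4.82% of all genes had one under 0.05, and its limma adjusted p was 0.88. The value was -0.19 without the second sample of line B without tamoxifen and -0.52 without the first. In line A it was -0.04, and the difference between the lines was -0.31 (SE 0.18, 95% interval -0.73 to 0.11, limma adjusted p = 1.00).

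Greb1 encodes a receptor cofactor that estradiol induces early in breast cancer cells. It read 6.17 and 6.14 in line A without tamoxifen, 6.19 and 6.13 in line A with it, 6.22 and 6.41 in line B without it, and 6.14 and 6.18 in line B with it. Only line B without tamoxifen (mean 6.31) stood above the next group without overlap, and the means of the other 3 groups lay between 6.15 and 6.16. The change over both lines was -0.07 (SE 0.07, 95% interval -0.23 to 0.08, limma adjusted p = 0.83). By line it was 0.01 for A and -0.15 for B.

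Tff1 encodes a trefoil factor, a small secreted peptide of the stomach mucosa that is also a classical estrogen-induced transcript of breast cancer cells. It read 7.75 and 7.70 in line A without tamoxifen, 7.53 and 7.48 in line A with it, 7.63 and 7.96 in line B without it, and 7.52 and 7.71 in line B with it. The line A samples with tamoxifen lay below those without, and the line B samples overlapped. The means were 7.76 ± 0.14 and 7.56 ± 0.10 (SD, n = 4 each), a change of -0.20 (SE 0.08, 95% interval -0.39 to -0.01). Tff1 was the only member with an unadjusted p under 0.05 over both lines (0.037), as were 9.85% of all genes, and its limma adjusted p was 0.45. By line it was -0.22 for A and -0.18 for B, and the value of B was -0.02 without the second sample of line B without tamoxifen and -0.35 without the first. The groups ordered as line B without (7.79), line A without (7.72), line B with (7.61) and line A with (7.51), each overlapping the next.

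The array that carried the highest value of Pgr, Greb1 and Tff1 was the same, the second sample of line B without tamoxifen, where they stood 0.41, 0.21 and 0.30 above their own means over the 8 arrays. The median of the 30 genes restricted to other tissues was also highest there, 0.18 above its mean over the arrays, and lowest on the first sample of line B with tamoxifen, at -0.15. Of those 30 genes, 9 had their highest value on that array and 12 on the second sample of line B with tamoxifen, as did 22.8% and 19% of all genes, while the medians of all genes stayed within -0.03 and 0.05 of their mean. With the arrays shifted so that the median of the 30 genes is equal on all of them, every gene moves by 0.08 over both lines and by 0.12 in line B. The changes over both lines are then -0.01 for Esr1, 0.15 for Esr2, -0.12 for Pgr, 0.01 for Greb1, -0.12 for Tff1, 0.11 for Cxcr4 and 0.16 for Nrip1, and Pgr in line B is -0.24. Greb1 thus changes sign, the values of Esr1, Pgr and Tff1 are smaller in size and those of Esr2, Cxcr4 and Nrip1 larger. This shift was added after the data were seen. Without that array and with no shift, the change over both lines is -0.10 for Pgr, -0.02 for Greb1 and -0.14 for Tff1, and the cause of its higher values was not tested.

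**Figure D2:**
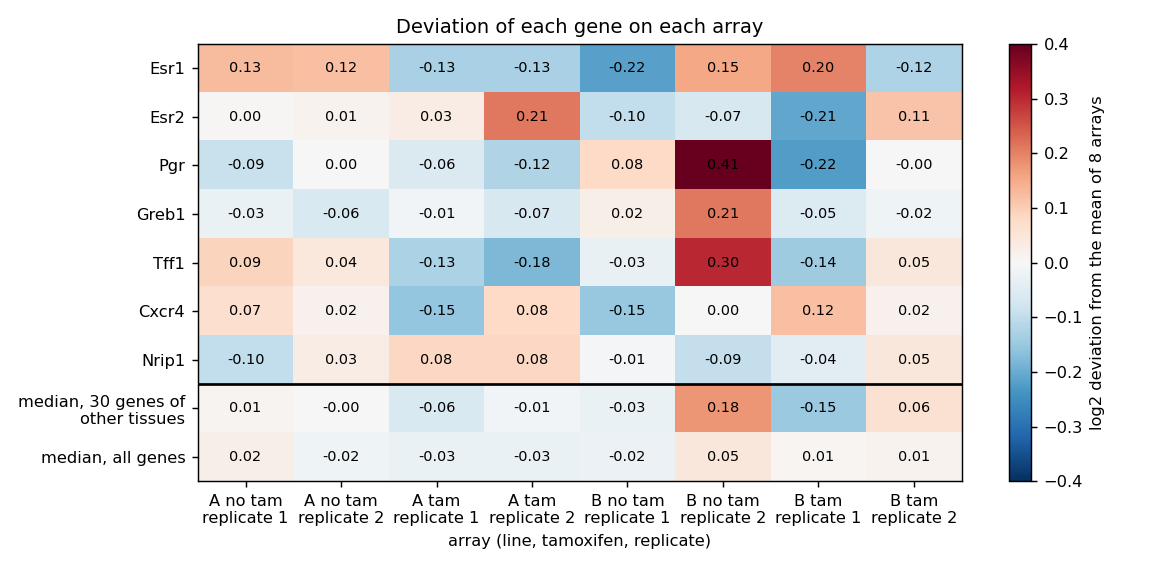
Deviation of each array (columns) from a gene's own mean over the 8 arrays, in log2 units (colour), for the 7 genes, the median of the 30 genes restricted to other tissues and the median of all genes (rows). On the second array of line B without tamoxifen Pgr, Tff1 and Greb1 are at 0.41, 0.30 and 0.21 and the median of the 30 genes is at 0.18.

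Cxcr4 encodes the receptor of the chemokine Cxcl12, which guides blood and progenitor cells and is estrogen-induced in breast cancer cells. It read 6.88 and 6.83 in line A without tamoxifen, 6.66 and 6.90 in line A with it, 6.67 and 6.82 in line B without it, and 6.94 and 6.83 in line B with it. All neighbouring groups overlapped, from line B with tamoxifen (6.88) through line A without (6.86) and line A with (6.78) to line B without (6.74). The change was 0.03 (SE 0.08, 95% interval -0.15 to 0.21, limma adjusted p = 0.94), with -0.08 in line A and 0.14 in line B. Its sign depended on single arrays: leaving out 1 array gave -0.02 to 0.10 over both lines and -0.20 to 0.04 in line A. Blood cells also make Cxcr4. The 11 measured blood cell markers had a median change of 0.09 with tamoxifen. Between the lines their median was 0.37 (without tamoxifen) and 0.62 (with) towards line B. Cxcr4 was at -0.12 (SE 0.11) and 0.11 (SE 0.11) in the same 2 comparisons. Of the blood cell markers the lysozyme gene Lyz2 was called higher in line B in both (2.14 and 1.53) and the lysosomal gene Laptm5 with tamoxifen (0.81). Only 2 of the 11 markers averaged above 7.45, and Cxcr4 did not. Whether blood cells contribute to the Cxcr4 values was not tested.

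Nrip1 encodes RIP140, a corepressor that binds nuclear receptors carrying a ligand and is itself estrogen-induced. It read 8.45 and 8.59 in line A without tamoxifen, 8.64 and 8.64 in line A with it, 8.55 and 8.46 in line B without it, and 8.51 and 8.60 in line B with it. It varied least of the 7 over the 8 arrays, by 0.18 on the log2 scale. Line A with tamoxifen (8.64) was the highest group and did not overlap the next, line B with (8.56), and line A without (8.52) and line B without (8.50) overlapped their neighbours. The means were 8.51 ± 0.06 and 8.60 ± 0.06 (SD, n = 4 each), a change of 0.08 (SE 0.07, 95% interval -0.06 to 0.23, limma adjusted p = 0.77), and 0.05 to 0.11 with 1 array left out.

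For the difference of the tamoxifen effect between the lines, 0 of 7 members and 0% of all genes passed. The 95% intervals give the size of change that each gene leaves room for: over both lines all 7 lay between -0.42 and 0.26, or 0.747 and 1.20 times the level without tamoxifen. In the single lines they were wider, -0.59 to 0.39 in line A and -0.65 to 0.40 in line B. The median change of the members was -0.07 over both lines beside -0.01 for all genes, -0.04 beside -0.02 in line A, and 0.03 beside -0.01 in line B. In 0 of 7 members were the 4 samples with tamoxifen separate from the 4 without, as 5.31% of all genes were. In size, the change over both lines was larger than that of 90.0% of all genes for Pgr and Tff1, and than that of 25.1% for Cxcr4.

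**Figure D3:**
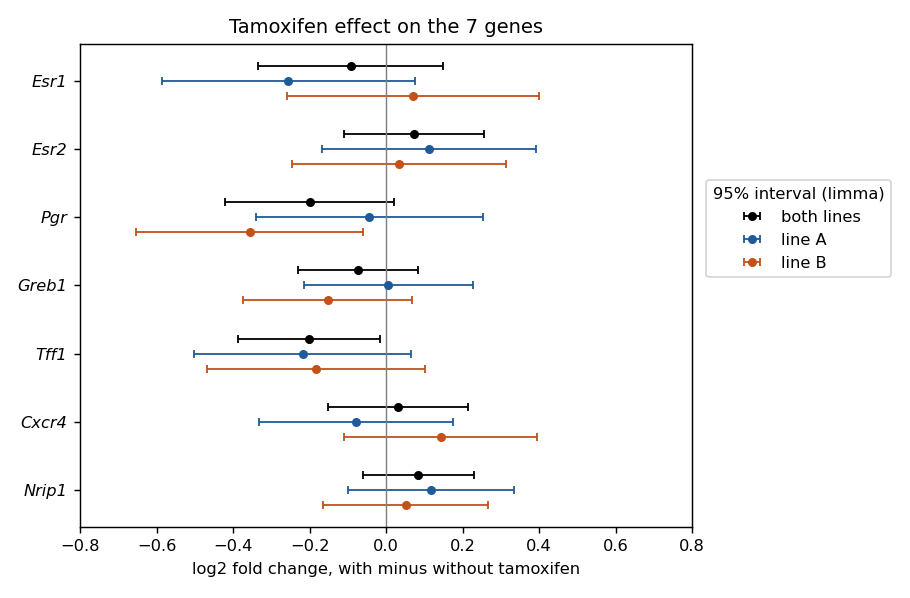
Log2 fold change with tamoxifen (horizontal axis) of the 7 genes over both lines, in line A and in line B, with 95% intervals from limma (bars). All intervals over both lines lie between -0.42 and 0.26, and those over both lines include 0 except that of Tff1, whose limma adjusted p is 0.45. In the single lines the interval of Pgr in line B, -0.65 to -0.06, also excludes 0, with a limma adjusted p of 0.88.

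Between the lines 0 of the 7 members passed, with or without tamoxifen, where 0.326% and 0.532% of all genes did. These comparisons share their samples with the tamoxifen comparisons. The largest value was that of Pgr, 0.29 higher in line B without tamoxifen (SE 0.13, limma adjusted p = 0.99), and with tamoxifen it was -0.02. Esr1 was at -0.16 without and 0.17 with tamoxifen (SE 0.15 each), and Esr2 at -0.09 and -0.17 (SE 0.12 each).

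Of the other genes of the pathway, 99 of 115 on 8 lists were measured. Over both lines 1 was higher, 1 was lower and 97 did not pass, and the median was -0.04 beside -0.01 for all genes. That is 2.02% called, beside 1.32% of all genes. In each of the other 5 comparisons 0 of these 99 passed, where at most 0.532% of all genes did, so those counts say nothing about the lists. The lists were chosen with earlier results of these data known.

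Both called genes belong to the list of other estrogen-induced genes, of which 31 of 35 were measured and whose median was -0.05. That is 2 of 31, where 1.32% of all genes were called. An unadjusted limma p under 0.05 was seen for 8 of the 31, and for 9.85% of all genes. The list was not tested as a set. Igf1, the growth factor that mediates much of the mitogenic effect of estradiol in uterus, read 8.95 and 9.03 in line A without tamoxifen, 9.47 and 9.65 in line A with it, 9.02 and 8.94 in line B without it, and 9.47 and 9.40 in line B with it. All 4 samples with tamoxifen were above all 4 without. It rose by 0.51 (SE 0.07, 95% interval 0.36 to 0.67, limma adjusted p = 0.0073), or 1.43-fold, with 0.57 in line A and 0.45 in line B, neither of which passed alone (limma adjusted p = 0.057 and 0.31). Igf1 passed in 18 of 18 other settings.

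Sgk1, a kinase regulated by steroid hormones and by serum, read 8.73 and 8.76 in line A without tamoxifen, 8.35 and 8.41 in line A with it, 8.45 and 8.33 in line B without it, and 7.95 and 8.08 in line B with it. Within each line the samples with tamoxifen were below those without, and across the lines they overlapped, since line B was lower by 0.36 without and 0.37 with tamoxifen, differences that did not pass. It fell by 0.37 (SE 0.07, 95% interval -0.51 to -0.22, limma adjusted p = 0.025). The call was lost in 7 of 18 other settings: without any 1 of the line A arrays, without the first sample of line B with tamoxifen, with no term for the line, and with the shift to equal medians of the 30 genes, where the change was -0.29 and the limma adjusted p 0.25. The next genes of the list by p, Cxcl12 and the carbonic anhydrase gene Car12, were at -0.32 (SE 0.08, limma adjusted p = 0.11) and -0.25 (SE 0.08, limma adjusted p = 0.30).

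Counts of 0 in the lists that follow are no result about them, since 1.32% of all genes passed over both lines. Of 9 measured steroid and estrogen-related receptors, among them Esr1, Esr2 and Pgr, 0 passed, and the median was -0.04. The orphan receptor genes Esrrg and Esrra were at -0.12 and -0.11, and the mineralocorticoid receptor gene Nr3c2 at 0.10. Their means over the 8 arrays, 6.41, 6.93 and 5.79, were below 7.45, the 95th percentile of the genes restricted to other tissues. Besides the members, the named list genes Car12, Gata3, Fkbp5, Hsd17b1, Star, Cxcr2, Ccr2, Tff2, Laptm5 and Emcn also averaged below 7.45. Of 25 coregulators and pioneer factors, which the receptors recruit or follow to open chromatin, 0 passed and the median was -0.07. Pelp1, a scaffold of receptor signalling, was at -0.18 (SE 0.08), the coactivator gene Ncoa1 at 0.12 (SE 0.06), the acetyltransferase gene Ep300 at -0.15 (SE 0.09) and the pioneer factor gene Gata3 at 0.14 (SE 0.08).

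Steroid receptors without a ligand are held by chaperones. Of 10 measured, 0 passed and the median was -0.01. Fkbp5, an immunophilin of these complexes and a target of glucocorticoid and progesterone receptors, was at -0.34 (SE 0.10, 95% interval -0.57 to -0.11, limma adjusted p = 0.23), and its relative Fkbp4 at -0.23 (SE 0.10, limma adjusted p = 0.45). The cochaperone genes Dnajb1 and Stip1 were at 0.14 and -0.08.

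Of 13 genes of estrogen synthesis and metabolism 0 passed, with a median of 0.01. The hydroxysteroid dehydrogenase genes Hsd17b7, Hsd17b4 and Hsd17b1 were at 0.09, 0.10 and -0.12, and Star, which moves cholesterol into mitochondria, at 0.08. Tamoxifen also binds some sterol enzymes and sigma receptors. Of 4 measured genes of sterol enzymes and sigma receptors 0 passed, and the median was -0.12. Tmem97, which encodes the sigma-2 receptor, was at -0.41 with a wide error (SE 0.16, 95% interval -0.76 to -0.06, limma adjusted p = 0.38). The cholesterol synthesis genes Dhcr7, Ebp and Sc5d were at -0.19, -0.05 and -0.01.

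For the chemokine receptors and the ligands of Cxcr4, 0 of 11 passed and the median was 0.00. Cxcl12, the ligand, read 9.91 and 9.86 in line A without tamoxifen, 9.68 and 9.62 in line A with it, 9.47 and 9.68 in line B without it, and 9.26 and 9.08 in line B with it. In each line the samples with tamoxifen were below those without, and over both lines Cxcl12 did not pass, as given above. Cxcr6 was at 0.22, Cxcr2 at -0.21 and Ccr2 at -0.10. Of the 3 trefoil factor genes 0 passed. Beside Tff1 at -0.20, Tff2 was at -0.11 and Tff3, which is also estrogen-induced in breast cancer cells, at -0.02.

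**Figure D4:**
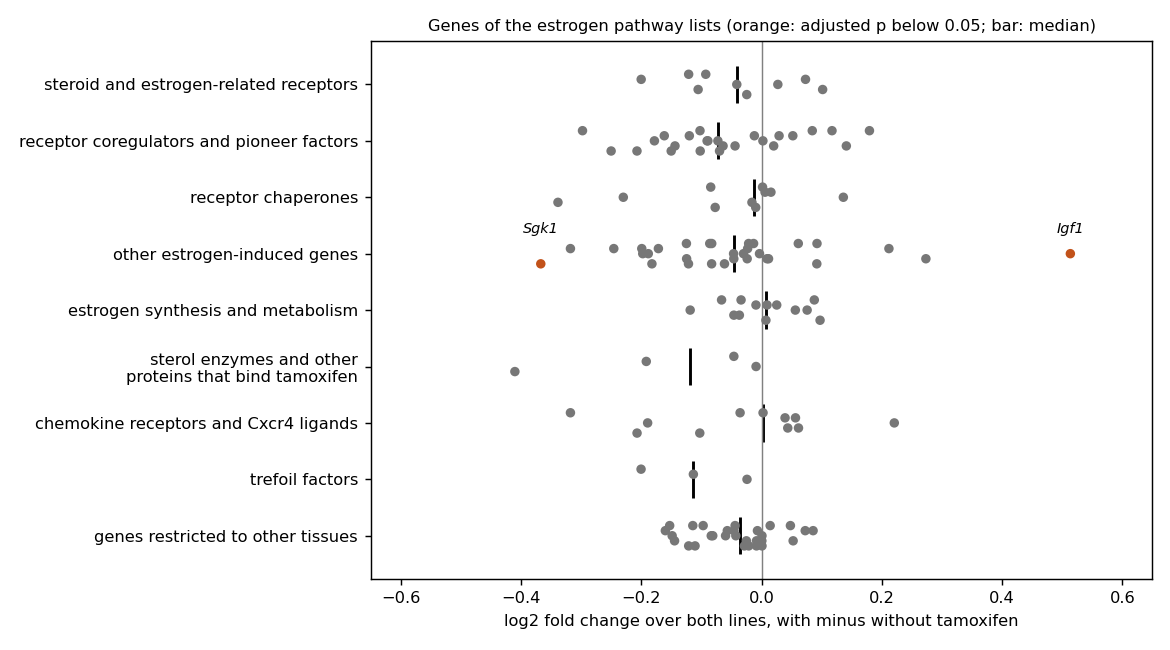
Log2 fold change with tamoxifen over both lines (horizontal axis) of the measured genes of the 8 pathway lists and of the 30 genes restricted to other tissues (rows), 1 point per gene. Igf1 at 0.51 and Sgk1 at -0.37, both on the list of other estrogen-induced genes, are the called genes of the pathway lists and are in orange.

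The cell type markers gave the following beside these lists. Among all genes, 1.32% passed over both lines, and between the lines 0.326% without and 0.532% with tamoxifen. Counts of 0 are therefore no result about a marker list. Of 13 fibroblast markers 2 rose over both lines, the matrix proteoglycan genes Lum (1.33, SE 0.17) and Dcn (0.88, SE 0.15), with a list median of -0.01. Of 8 endothelial markers 1 fell, the transcription factor gene Erg (-0.44, SE 0.07), with a median of 0.03. Of 11 epithelial and mammary markers, 11 blood cell markers and the 30 genes restricted to other tissues 0 passed, with medians of -0.05, 0.09 and -0.04. Between the lines, Thy1 (0.64) and Dcn (0.87) without tamoxifen and the endothelial gene Emcn in both conditions (1.08 and 1.02) were called higher in line B, and Lum with tamoxifen lower (-1.83). The part of these markers in the values of the receptors and their targets was not tested.

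Over the 8 samples, the 3 genes most like Esr1, Tff1 and Nrip1, the members that averaged above 7.45, were named as a description, since the points share arrays and 2 lines. For Esr1 these were Klhdc8a (Pearson r = 0.985), Gjd3 (0.979) and Mief1 (0.977), and 93 of 19937 genes had an r above 0.9. For Tff1 they were C130050O18Rik (0.989), Yjefn3 (0.985) and Hid1 (0.980), with 117 genes above 0.9. For Nrip1 they were Tnfaip8 (0.984), Ndufb9 (0.982) and AW549877 (0.982), with 295 genes above 0.9.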

How the data were processed

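Total RNA of 8 samples was hybridised to Affymetrix arrays, which the authors processed by RMA with Affymetrix Expression Console, per the labels. The sources used here do not give its version. The deposited values are log2 expression values, from 2.61 to 14.12. RMA corrects background, equalises the distributions of the arrays and compresses changes of dim probe sets. The titles set the groups; the replicate numbers follow sample order.

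Of 35556 probe sets, 21789 carried 1 gene symbol, 1621 several and 12146 are unnamed here. Where a gene had more probe sets (999 genes), that with the highest mean was used, which left 19938 genes. Gene IDs of 21698 probe sets matched RefSeq, and 0 symbols changed. The number of arrays limits the precision.

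limma 3.58.1 (lmFit, eBayes) in R 4.3.3 was fitted to all genes, with line and tamoxifen for the effect over both lines (5 residual degrees of freedom) and with the 4 group means for the other 5 comparisons (4). The fits were tested on simulated data. The members, lists and tests were chosen with earlier results of these data known. Genes named are the 7 members, up to 4 genes per pathway list with the smallest p over both lines, every called list gene, and the 3 most alike by Pearson r to each member above the 95th percentile of 30 genes restricted to other tissues. List genes without a probe set of their own were not analysed here. Alternatives were other normalizations, filters, variance models, array weights, probe set rules, line terms and samples left out.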

Additional observations from a re-analysis of the deposited data

Results flagged for a closer look

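Esr1 had 1 sample far from the other 3 in each condition over both lines. With tamoxifen the first sample of line B read 8.72 and the others 8.39 to 8.40. Without tamoxifen the first sample of line B read 8.30 and the others 8.64 to 8.68. For the 7 members, Igf1 and Sgk1, 18 sets of 4 samples were looked at and 2 stood apart in this way, where chance gives about 1 in 20. That share takes no account of the line, and each set joined samples of both lines. The Esr1 SDs without and with tamoxifen were 0.005 and 4.4e-05 in line A, and 0.26 and 0.23 in line B. No conclusion is therefore drawn from the share.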

How the results depend on the processing

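Under 20 other settings, 0 of the 7 members was called in any comparison. Of 694 member values, 26 changed sign, none of them called, and the smallest limma adjusted p was 0.0845, for Tff1 over both lines with array weights (-0.22, SE 0.06). The count of all genes called over both lines, 263, was 983 with array weights and 132 with no term for the line. In line A the count of 100 was 63 with a common median, 525 with array weights, 183 with every probe set on its own, 50 with the shift to equal medians of the genes restricted to other tissues and 543 in a fit of line A alone. In line B the count of 4 was 2 with a common median, with quantile normalization again and in a fit of line B alone, 1 with array weights and 17 with that shift. Between the lines, 65 without tamoxifen became 30 with the shift, and 106 with tamoxifen became 195 with every probe set on its own and 42 with the shift. Leaving out 1 sample gave 58 to 353 genes over both lines, 0 to 143 in line A, 0 to 6 in line B, 0 for the difference between the lines (565 genes had an unadjusted p under 0.05 there with all samples), and 4 to 79 and 0 to 102 between the lines without and with tamoxifen. The causes were not tested. No paired analysis was possible because the labels number no replicates. With 2 arrays a group, the number of arrays limits the precision.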
